A study of Mus musculus with 9 samples.

Results

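The genes described here are 32 macrophage receptor and lysosome genes, read in RNA-seq of mouse tibia. They were taken by symbol from a list of tissue macrophage surface receptors, lysosomal proteases and other lysosome proteins, and macrophage transcription factors. All 32 are among the 18272 genes of the deposited table. A gene was tested when 3 or more of the 9 libraries held 10 or more of its counts, which left 13960 genes, 31 of them members, and the scavenger receptor Marco fell below this limit. The members are described in 7 groups by role, in which 1 library stands for 1 mouse.

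Macrophages are phagocytes that live in nearly every tissue, and bone holds several kinds of them on its surfaces and in the marrow. They take up dying cells, aged red cells and microbes through surface receptors and break this cargo down in lysosomes, where cathepsins and legumain cut proteins. In marrow, macrophages also surround maturing red cells, and osteoclasts, the cells that resorb bone, come from the same myeloid lineage. Several members are not limited to macrophages, since cathepsins B, D and L serve the lysosomes of most cells and lysozyme 2 is also made by neutrophils. In bulk tissue, fewer cells of a type and less RNA per cell cannot be told apart.

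The study used female C57BL/6J mice bought at 10 to 11 weeks of age, and asked how liraglutide, a drug that activates the receptor of glucagon-like peptide-1, acts on bone in type 1 diabetes. NGT mice (normal glucose tolerance, n = 3) had been injected with vehicle and are labelled as saline-treated, T1D mice (n = 3) had a single injection of streptozotocin (STZ), which kills the insulin-producing beta cells, and then saline, and Lira mice (n = 3) had STZ and then liraglutide at 0.6 mg/kg/day. Treatment lasted 8 weeks, except that the label of Lira mouse 3 says 9 weeks. Diabetes in this model follows from a beta-cell toxin and not from autoimmunity, and STZ was given to T1D and Lira mice alike.

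The libraries held 13086373 to 16528394 counts, and 3 counts, the most that a count of 0 leaves room for, equalled 0.163 to 0.237 CPM (counts per 1000000 of the library total, with totals scaled between libraries by the TMM method). These limits cover counting error only. The methods describe tibiae cleaned of muscle, yet 10 skeletal muscle markers summed to 82843 CPM in T1D mouse 1 and to as much as 231612 CPM in NGT mouse 3. Both T1D mouse 1 and Lira mouse 3 stood apart from the rest. T1D mouse 1 was more than 2 times as high as every other library for 476 of the 13960 genes and Lira mouse 3 for 441, against 2 to 83 genes in each of the other 7 libraries. The main counts and medians are therefore also given without T1D mouse 1 and, for T1D against NGT, without NGT mouse 1 and T1D mouse 1 together. Leaving out both of these mice was chosen after seeing the data.

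Per length, the members spanned a wide range of levels. On the authors' FPKM scale (fragments scaled for gene length and library size), the mean over the 9 mice was highest for Ctsd at 343, followed by Ctsb at 301, Lyz2 at 270, Apoe at 123 and Ctsl at 83.7. Maf at 45.9, Lgmn at 24.4, Cd68 at 17, Axl at 14 and Mpeg1 at 13 came next. The lowest tested members were Siglec1 at 0.378 and Timd4 at 0.356, and Marco stood at 0.06. Mice differed little for some members and greatly for others. The biological coefficient of variation, edgeR's estimate of the spread between mice of a group, was 0.231 for Ctsd, 0.27 for Axl and 0.278 for Cd163, but 1.02 for Lyz2, 1.03 for Mpeg1, 1.11 for Aif1 and 1.12 for Ms4a7, against 0.433 in common over the genes.

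**Figure D1:**
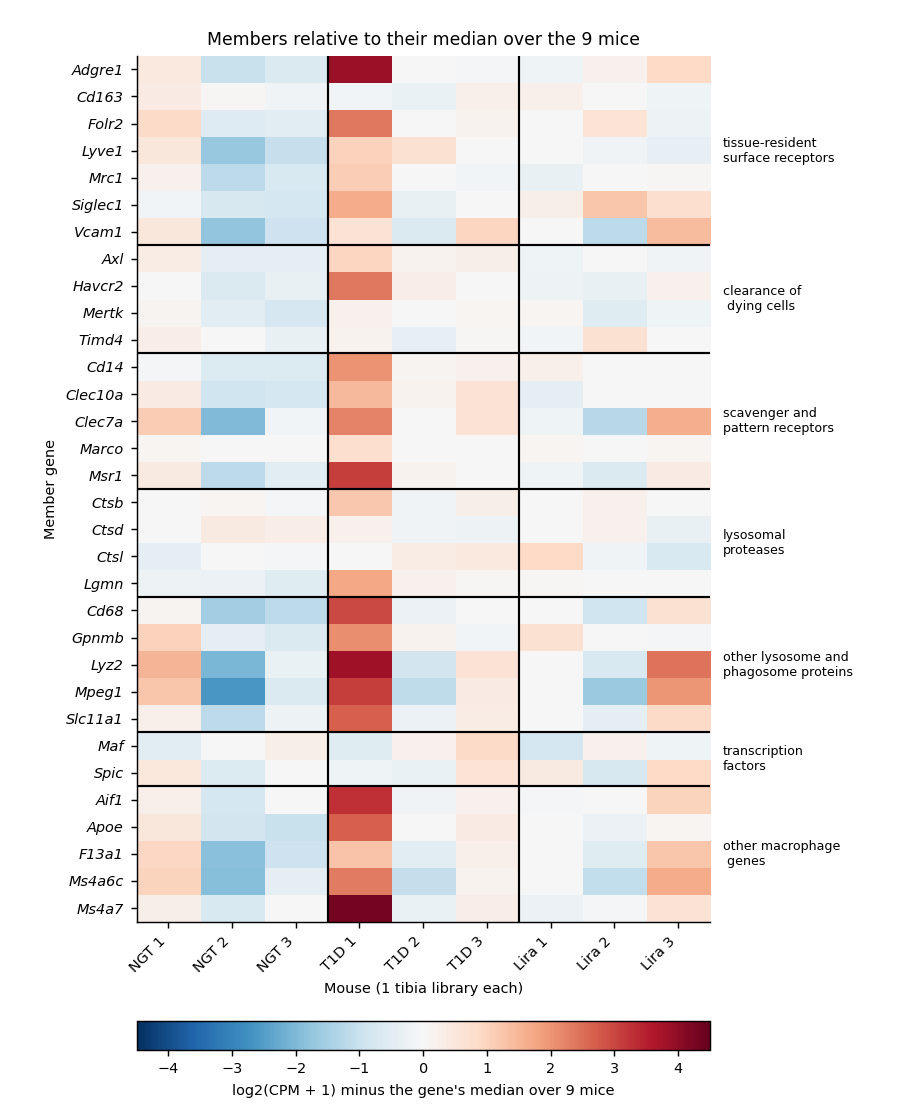
Each row is 1 member gene and each column 1 mouse, and colour gives log2(CPM + 1) minus the gene's median over the 9 mice, red for higher and blue for lower. T1D mouse 1 was the highest of the 9 mice for 24 of the 31 tested members, while Cd163, Ctsd, Ctsl, Maf, Spic, Timd4 and Vcam1 were highest in another mouse.

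T1D was first compared with NGT, to ask how the members stood in the diabetic tibia. Of the 31 tested members, 28 had a higher fitted level in T1D and 3 (Cd163, Timd4 and Ctsd) a lower one, with a median log2 difference of 1.25, against 0.02 over all genes tested. Adgre1, Ms4a7, Havcr2, Aif1 and Msr1 had the largest differences, and Timd4, Cd163, Spic, Ctsd and Maf the smallest. None of the members was a DEG (differentially expressed gene) with more than a 2-fold change at an adjusted p-value under 0.05. Among all genes the share was 0.00%, and the members' adjusted p-values ran from 0.977 to 0.996 (quasi-likelihood test of edgeR, Benjamini-Hochberg adjusted).

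At an unadjusted p under 0.05, 12 of the 31 members differed, all higher in T1D, which is 38.7% of them against 3.95% of all genes tested. The 12 were Adgre1, Siglec1, Axl, Havcr2, Msr1, Clec10a, Cd14, Lgmn, Cd68, Slc11a1, Apoe and Ms4a7. DESeq2 gave 10 members under this limit, against 4.99% of genes, and no DEG among them. The size of this difference depended on which mice were kept. With T1D mouse 1 left out, the members' median log2 difference was 0.40, and 23 of 31 were higher in T1D, against 48.6% of all genes. Lgmn alone then had an unadjusted p under 0.05, against 2.99% of all genes. This fit keeps NGT mouse 1, which was the highest NGT mouse for most members, and in it Folr2, Gpnmb, Lyz2, Mpeg1 and Ms4a6c had a fitted level below NGT. NGT mouse 1 and T1D mouse 1 deviated together across genes, as set out below for equal numbers. With both left out, a fit chosen after seeing the data, the members' median log2 difference was 1.01, against 0.01 over all genes. In it, 30 of 31 members were higher in T1D, those 5 included, against 51.2% of genes. An unadjusted p under 0.05 was reached by 10 members, against 4.06% of genes. Of these 10, Ctsd was lower in T1D and the others were higher. Without NGT mouse 3 the median was 1.13, and 1 member had an unadjusted p under 0.05, against 1.82% of genes.

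All 3 T1D mice lay above all 3 NGT mice for 4 members, Lgmn, Ctsl, Cd14 and Havcr2, which is 12.9% of the members against 3.52% of all genes. For Havcr2 the order rests on few counts, with 9 in T1D mouse 3 and 9 in NGT mouse 1. For Cd14 it rests on 26 counts in T1D mouse 2 and 22 in NGT mouse 1. For Ctsl the nearest mice were at 135 CPM (T1D mouse 1) and 132 CPM (NGT mouse 2). For 0 members did all 3 T1D mice lie below all 3 NGT mice, against 5.08% of genes.

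Lira was then compared with T1D, to ask how the members stood under treatment. These T1D mice are the same 3 as above, so the 2 comparisons are not independent of each other. Of the 31 members, 26 had a lower fitted level in Lira than in T1D and 5 (Cd163, Siglec1, Timd4, Ctsd and Spic) a higher one, with a median log2 difference of -0.84, against 0.04 over all genes. None was a DEG, as for 0.00% of all genes, and the adjusted p-values of the members were 0.978 to 1.0 (quasi-likelihood test of edgeR, Benjamini-Hochberg adjusted).

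Only Axl and Ms4a7 had an unadjusted p under 0.05 for Lira against T1D, both lower in Lira, which is 6.45% of the members against 3.33% of genes. DESeq2 placed 6 members under this limit, against 4.44% of genes, and again called none. All 3 Lira mice lay below all 3 T1D mice for Axl, Lgmn and Clec10a, 9.68% of the members against 3.40% of genes, and above them for 0 members against 3.74% of genes. Without T1D mouse 1, the median log2 difference of the members was 0.13 and that of all genes 0.07, with 19 of the 31 members and 58.8% of all genes higher in Lira, and 0 members had an unadjusted p under 0.05, against 2.36% of genes. With Lira mouse 3, the other library that stands apart, left out as well, the members' median was -0.25 and that of all genes -0.02, with 9 of the 31 members and 47.9% of all genes higher in Lira.

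**Figure D2:**
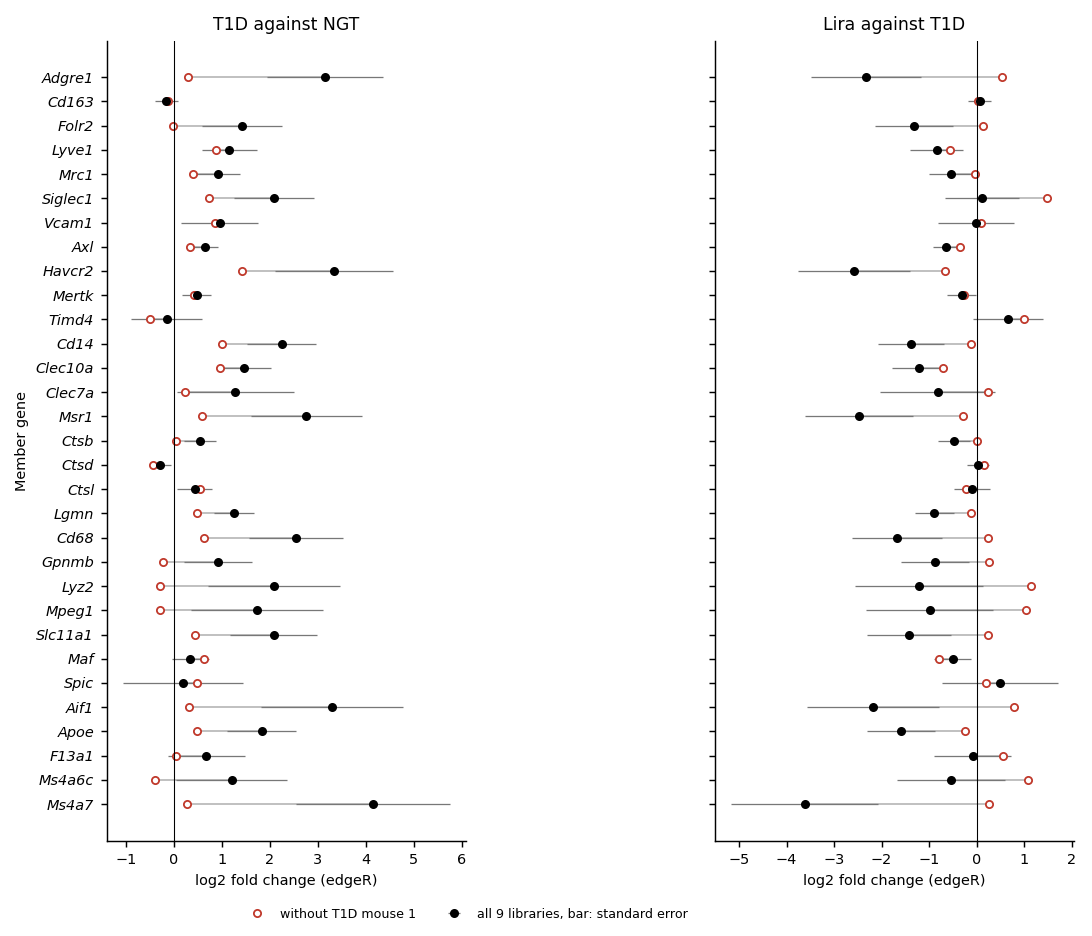
Log2 fold changes of the 31 tested members for T1D against NGT (left) and Lira against T1D (right), from all 9 libraries (black, with standard error) and without T1D mouse 1 (open red), joined by a grey line. Without that mouse, and with NGT mouse 1 still in the fit, 5 members changed sign on the left and 14 on the right.

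The tissue-resident surface receptors came first by role. Adgre1 encodes an adhesion receptor that serves as a general macrophage marker in mice. It stood at 4.76, 1.08 and 1.66 CPM in NGT mice 1 to 3, at 60.9, 3.21 and 2.93 CPM in T1D mice 1 to 3, and at 2.64, 3.82 and 6.89 CPM in Lira mice 1 to 3. T1D mouse 1 was 8.85 times as high as the next mouse, and the other T1D mice overlapped with both other groups. The log2 difference between T1D and NGT was 3.15 (SE 1.21) with that mouse, 0.29 without it and 1.15 without both mice numbered 1, and for Lira against T1D it was -2.33 (SE 1.16) with it and 0.54 without it.

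Siglec1, which binds sialic acids on other cells, was at 1.21, 0.464 and 0.396 CPM in NGT, at 6.58, 0.917 and 1.4 CPM in T1D, and at 1.86, 4.75 and 3.04 CPM in Lira. Here all 3 Lira mice lay above all 3 NGT mice, as did T1D mice 1 and 3 but not T1D mouse 2. Folr2, a folate receptor of resident macrophages, was at 5.71, 1.47 and 1.66 CPM in NGT, at 18, 2.68 and 3.13 CPM in T1D, and at 2.71, 4.67 and 2.18 CPM in Lira.

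Mrc1, the mannose receptor, had less spread, with 19.8, 6.96 and 10.1 CPM in NGT, 37.4, 17 and 15.4 CPM in T1D, and 13.2, 17 and 17.5 CPM in Lira. Lyve1, a hyaluronan receptor shared by some macrophages and lymphatic endothelium, was at 22, 3.94 and 6.89 CPM in NGT, at 32.4, 25 and 15.3 CPM in T1D, and at 15.3, 13.7 and 11.7 CPM in Lira. For both genes NGT mouse 1 reached into the T1D range. The log2 difference of Lyve1 between T1D and NGT was 1.15 (SE 0.57), 0.88 without T1D mouse 1 and 1.88 without both mice numbered 1.

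Cd163 and Vcam1 did not follow T1D mouse 1. Cd163, the scavenger receptor for haemoglobin bound to haptoglobin, was nearly even, with 13.1, 10.4 and 8.87 CPM in NGT, 9.19, 7.99 and 11.9 CPM in T1D, and 11.8, 9.97 and 8.55 CPM in Lira. Its log2 difference was -0.16 (SE 0.24) for T1D against NGT and 0.06 (SE 0.24) for Lira against T1D. Vcam1 encodes an adhesion molecule found on marrow macrophages but also on stroma and endothelium. It was at 23.5, 4.1 and 8.23 CPM in NGT, at 26.3, 10 and 33.2 CPM in T1D, and at 16.4, 6.78 and 45.9 CPM in Lira, highest in Lira mouse 3 and T1D mouse 3, which also had the highest sums of erythroid markers.

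**Figure D3:**
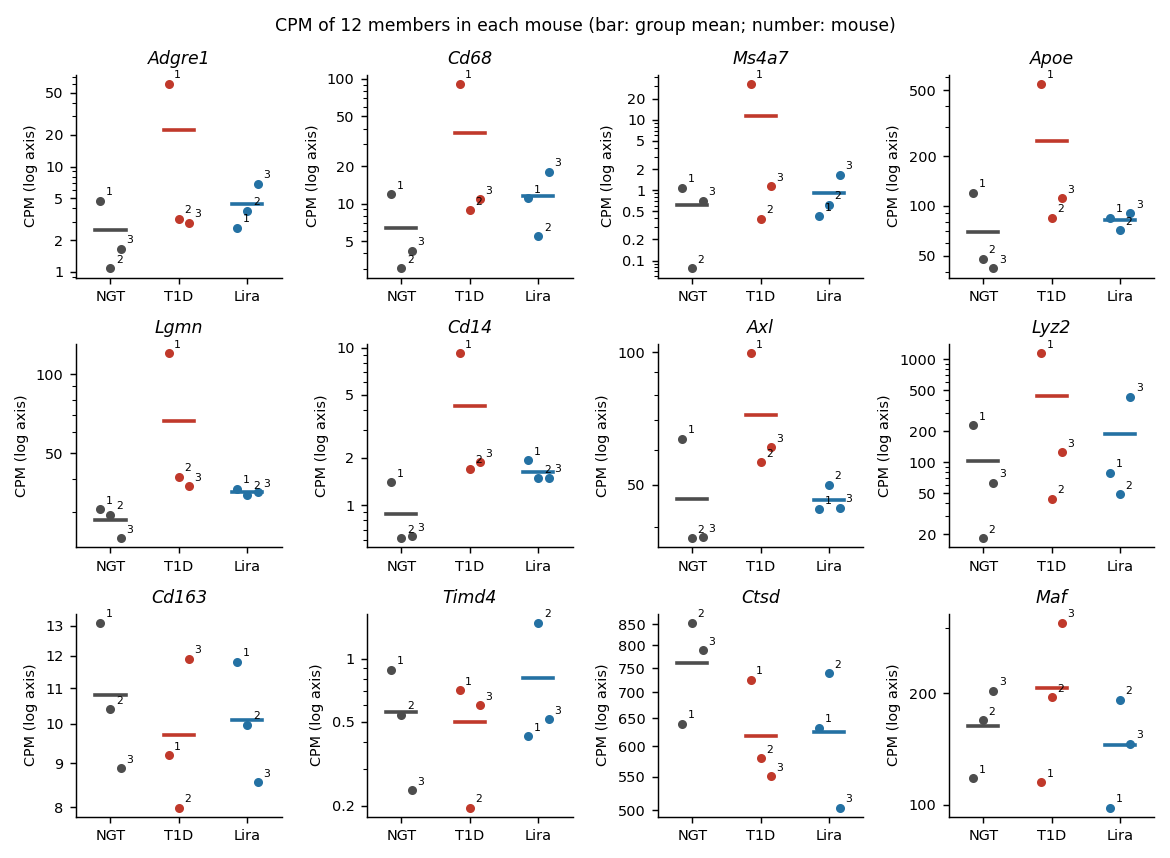
CPM (log axis) of 12 members in each mouse, with the mouse number beside each point and a bar for the group mean. Adgre1, Cd68, Ms4a7 and Apoe were highest in T1D mouse 1 by far, Lgmn, Cd14 and Axl were also higher in the other T1D mice than in most or all NGT mice, and Cd163, Timd4, Ctsd and Maf showed no such order.

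Among the 4 receptors for dying cells, Axl varied least. Axl and Mertk are receptor tyrosine kinases that recognise phosphatidylserine on dying cells through the bridging proteins Gas6 and protein S. Axl was at 63.6, 37.8 and 37.9 CPM in NGT, at 99.5, 56.2 and 60.9 CPM in T1D, and at 44, 50 and 44.3 CPM in Lira. The means were 46.4 ± 14.8, 72.2 ± 23.7 and 46.1 ± 3.38 CPM (SD, n = 3 each), and all 3 Lira mice lay below all 3 T1D mice, while NGT mouse 1 lay above T1D mice 2 and 3. Its log2 difference was 0.64 (SE 0.28) for T1D against NGT and -0.65 (SE 0.28) for Lira against T1D, with adjusted p-values of 0.977 and 0.978 (quasi-likelihood test of edgeR, Benjamini-Hochberg adjusted). Without T1D mouse 1 these differences were 0.33 and -0.35, in the same directions, and the first was 0.62 without both mice numbered 1.

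Mertk was at 12.2, 7.58 and 6.1 CPM in NGT, at 12.8, 11.1 and 11.9 CPM in T1D, and at 11.8, 7.24 and 9.7 CPM in Lira, with log2 differences of 0.47 (SE 0.30) and -0.32 (SE 0.30). T1D mice were close to each other for this gene, and NGT mouse 1 lay among them. Timd4 and Havcr2 encode receptors of the TIM family that bind phosphatidylserine directly. Timd4, a marker of long-lived resident macrophages, stayed at 0.888, 0.541 and 0.237 CPM in NGT, 0.707, 0.196 and 0.6 CPM in T1D, and 0.428, 1.48 and 0.517 CPM in Lira, at or near the level of a few counts. Havcr2 was at 0.571, 0 and 0.237 CPM in NGT, at 7.07, 0.917 and 0.6 CPM in T1D, and at 0.357, 0.234 and 0.804 CPM in Lira. T1D mouse 2 held 14 counts of Havcr2 against 0 in NGT mouse 2, while T1D mouse 3 and NGT mouse 1 held 9 each, a difference within counting error.

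The scavenger and pattern receptors were low in this tissue. Msr1, a receptor for modified lipoproteins, was at 2.67, 0.232 and 1.03 CPM in NGT, at 23, 2.16 and 1.8 CPM in T1D, and at 1.43, 0.779 and 2.58 CPM in Lira, so that T1D mouse 1 was 8.63 times as high as the next mouse. Cd14, a co-receptor for bacterial lipopolysaccharide, was at 1.4, 0.619 and 0.633 CPM in NGT, at 9.19, 1.7 and 1.87 CPM in T1D, and at 1.93, 1.48 and 1.49 CPM in Lira. Every T1D mouse lay above every NGT mouse for Cd14, and so did every Lira mouse. These orders rest on few counts, with 26 in T1D mouse 2, 19 in Lira mouse 2 and 22 in NGT mouse 1, differences within counting error. The log2 difference of Cd14 between T1D and NGT was 2.25 (SE 0.72), 1.00 without T1D mouse 1 and 1.49 without both mice numbered 1.

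Clec10a, a lectin for galactose-type sugars, was at 4.44, 1.24 and 1.42 CPM in NGT, at 10.4, 3.67 and 5.54 CPM in T1D, and at 2.14, 3.19 and 3.1 CPM in Lira. Its T1D mice all lay above the Lira mice, by a narrow margin for T1D mouse 2. Clec7a, a receptor for fungal beta-glucans, was at 9.77, 0.232 and 3.48 CPM in NGT, at 22.3, 3.93 and 6.67 CPM in T1D, and at 3.28, 1.09 and 14.2 CPM in Lira, and was thus high in 1 mouse of each group. Marco had 13 counts in T1D mouse 1, 1 count in each of NGT mouse 1, Lira mouse 1 and Lira mouse 3, and 0 in the others, and no difference between the groups was detectable at this depth.

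The lysosomal proteases were the most abundant group, and legumain stood out from the cathepsins. Lgmn, the asparagine-specific protease legumain, was at 30.6, 29.2 and 23.8 CPM in NGT, at 120 (mouse 1), 40.7 and 37.4 CPM in T1D, and at 36.6, 34.8 and 35.6 CPM in Lira. The means were 27.9 ± 3.58, 66.1 ± 46.9 and 35.7 ± 0.901 CPM (SD, n = 3 each). The groups did not overlap, with NGT lowest, Lira between and T1D highest, though the lowest T1D mouse and the highest Lira mouse nearly met. The log2 difference was 1.25 (SE 0.41) for T1D against NGT and -0.89 (SE 0.41) for Lira against T1D, with adjusted p-values of 0.977 and 0.978 (quasi-likelihood test of edgeR, Benjamini-Hochberg adjusted). Without T1D mouse 1 the first was 0.48 and the second -0.13, and the first was 0.55 without both mice numbered 1.

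Ctsb was at 445, 469 and 431 CPM in NGT, at 1027, 398 and 530 CPM in T1D, and at 441, 513 and 444 CPM in Lira, and T1D mouse 1 was the only mouse far from the rest. Ctsd, an aspartic protease, was at 640, 853 and 789 CPM in NGT, at 725, 580 and 551 CPM in T1D, and at 633, 739 and 504 CPM in Lira, with log2 differences of -0.30 (SE 0.23) and 0.02 (SE 0.23). Ctsl was at 99.6, 132 and 126 CPM in NGT, at 135, 167 and 180 CPM in T1D, and at 249, 117 and 82.5 CPM in Lira. All T1D mice lay above all NGT mice for Ctsl, by a narrow margin between T1D mouse 1 (135 CPM) and NGT mouse 2 (132 CPM). Lira mice lay on both sides of both groups. Its log2 difference from NGT was 0.43 (SE 0.37), 0.54 without T1D mouse 1 and 0.41 without both mice numbered 1.

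Cd68 encodes a glycoprotein of the lysosome membrane and marks macrophages and osteoclasts. It was at 11.9, 3.02 and 4.2 CPM in NGT, at 91.5, 8.9 and 10.9 CPM in T1D, and at 11.1, 5.45 and 18.1 CPM in Lira. Slc11a1, a metal transporter of the phagosome, was at 4.82, 1.16 and 3.25 CPM in NGT, at 30.7, 3.14 and 5.2 CPM in T1D, and at 3.93, 2.65 and 8.04 CPM in Lira. Gpnmb, a glycoprotein of lysosome and melanosome membranes, was at 16.1, 5.34 and 4.35 CPM in NGT, at 34.1, 8.18 and 6.6 CPM in T1D, and at 12.3, 7.32 and 7 CPM in Lira. In all 3 genes T1D mouse 1 was highest of all mice and NGT mouse 1 highest in NGT. The other T1D mice lay within the NGT range, except that T1D mouse 3 was just above it for Slc11a1.

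Lyz2, which encodes lysozyme, was at 228, 18.5 and 63.6 CPM in NGT, at 1141, 44.3 and 125 CPM in T1D, and at 79.2, 48.9 and 433 CPM in Lira. Mpeg1, which encodes the pore-forming protein perforin-2, was at 56.2, 2.94 and 14.2 CPM in NGT, at 204, 9.76 and 30.3 CPM in T1D, and at 23, 6.62 and 93.3 CPM in Lira. Both genes were thus high in mouse 1 of NGT and T1D and in Lira mouse 3, and low in mouse 2 of each group. The log2 difference of Lyz2 between T1D and NGT was 2.08 (SE 1.37) with T1D mouse 1, -0.30 without it and 1.03 without both mice numbered 1, and that of Mpeg1 was 1.73 (SE 1.37), -0.29 and 1.22 in the same order.

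The 2 transcription factors did not follow the receptors. Maf, which shapes resident macrophages and is also expressed outside the lineage, was at 118, 169 and 203 CPM in NGT, at 115, 195 and 310 CPM in T1D, and at 98.3, 192 and 146 CPM in Lira, and mouse 1 was the lowest in every group. Spic, which is needed by the iron-recycling macrophages of spleen and marrow, was at 1.27, 0.0773 and 0.633 CPM in NGT, at 0.435, 0.327 and 1.53 CPM in T1D, and at 1.14, 0 and 2.01 CPM in Lira, with T1D mouse 1 below NGT mouse 1.

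Of the remaining macrophage genes, Ms4a7, a membrane protein of the tetraspan MS4A family, showed the steepest rank of T1D mouse 1. It was at 1.08, 0.0773 and 0.712 CPM in NGT, at 32.5, 0.393 and 1.13 CPM in T1D, and at 0.428, 0.623 and 1.66 CPM in Lira, so that T1D mouse 1 was 19.5 times as high as the next mouse. The log2 difference was 4.15 (SE 1.60) for T1D against NGT and -3.62 (SE 1.55) for Lira against T1D, and 0.27 and 0.26 without that mouse, while without both mice numbered 1 the first was 0.93. Its relative Ms4a6c was at 18.3, 1.55 and 6.1 CPM in NGT, at 46.9, 3.6 and 9.54 CPM in T1D, and at 8.56, 3.43 and 29.2 CPM in Lira, in the same order of mice as Mpeg1 in each group.

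Apoe, the lipid carrier apolipoprotein E, was at 120, 47.9 and 41.8 CPM in NGT, at 549, 84.7 and 111 CPM in T1D, and at 84.8, 71.3 and 90.2 CPM in Lira. Its log2 difference was 1.83 (SE 0.72) for T1D against NGT and -1.59 (SE 0.71) for Lira against T1D, and 0.48 and -0.25 without T1D mouse 1, while without both mice numbered 1 the first was 1.11. Aif1, an actin-binding protein used as a macrophage marker, was at 1.02, 0 and 0.712 CPM in NGT, at 15.8, 0.524 and 0.934 CPM in T1D, and at 0.642, 0.701 and 2.41 CPM in Lira. F13a1, the A chain of clotting factor XIII, was at 53.8, 6.65 and 13.9 CPM in NGT, at 67.7, 18.9 and 31.9 CPM in T1D, and at 27.4, 18.4 and 65.8 CPM in Lira. For F13a1, unlike Aif1 and Apoe, NGT mouse 1 and Lira mouse 3 were close to T1D mouse 1.

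T1D mouse 1 was the highest of the 9 mice for 24 of 31 members, against 20.7% of all genes, and over 2 times as high as every other mouse for 14 of them, against 3.41% of genes. The 14 were Adgre1, Folr2, Havcr2, Cd14, Msr1, Lgmn, Cd68, Gpnmb, Lyz2, Mpeg1, Slc11a1, Aif1, Apoe and Ms4a7. By group these were all 5 of the other lysosome and phagosome proteins, 3 of 5 other macrophage genes, 2 of 4 tested scavenger and pattern receptors, 2 of 7 tissue-resident receptors, 1 of 4 receptors for dying cells, 1 of 4 proteases and 0 of 2 transcription factors. Lira mouse 3, the other library that stood apart, was over 2 times as high as every other mouse for 0 of 31 members, and for 441 of the 13960 genes.

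NGT and T1D mice that carry equal numbers deviated together across genes, and the members were therefore also compared within numbers. Neither the labels nor the paper pairs the mice, so this pairing was read from these same data. The values within numbers are not an independent test of the difference. T1D lay above NGT for 27 of 31 members in mice 1, against 47.7% of all genes, for 27 in mice 2, against 50.7% of genes, and for 30 in mice 3, against 53.5% of genes. In all 3 pairs T1D was above NGT for 25 members, which is 80.6% of them against 19.2% of genes. Cd163, Timd4, Ctsb, Ctsd, Maf and Spic were the exceptions. With the replicate number as a block and only these 2 groups in the fit, 24 of 31 members had an unadjusted p under 0.05, 77.4% against 14.0% of all genes, but none was a DEG and the lowest adjusted p of a member was 0.232 (quasi-likelihood test of edgeR, Benjamini-Hochberg adjusted).

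**Figure D4:**
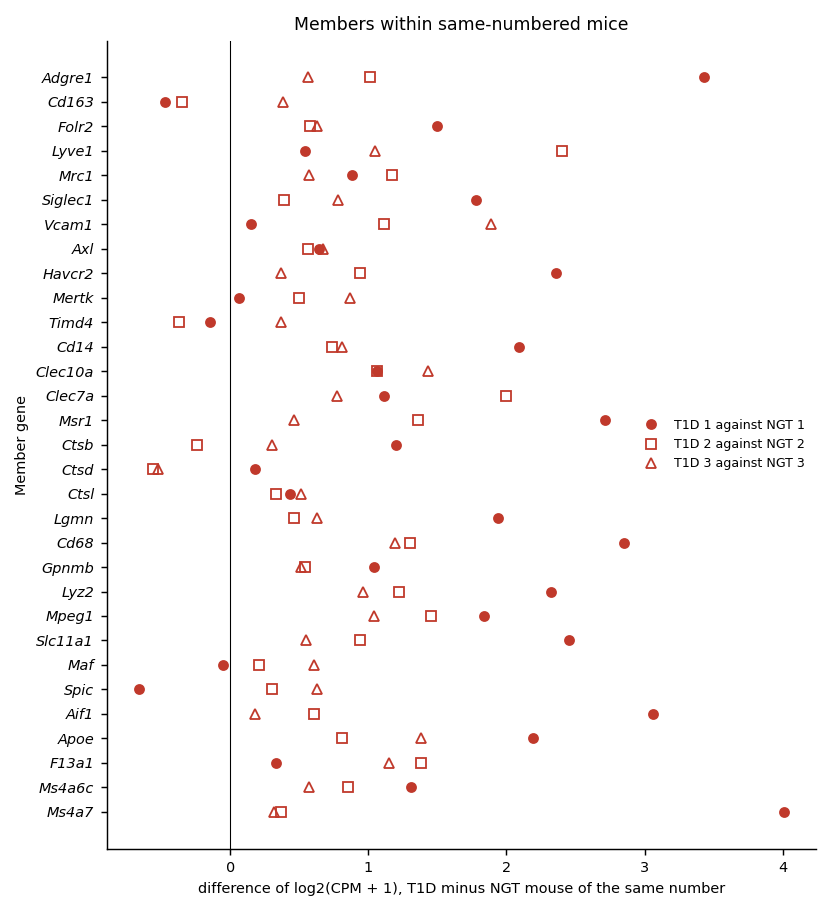
Difference of log2(CPM + 1) between the T1D and the NGT mouse of the same number for each of the 31 tested members, with a filled circle for mice 1, a square for mice 2 and a triangle for mice 3. For 25 members all 3 symbols lie to the right of 0, and for Ms4a7, Adgre1 and Aif1 the first pair lies more than 3 units out.

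The size of the difference varied between pairs and between genes. For Axl the differences of log2(CPM + 1) in mice 1, 2 and 3 were 0.64, 0.56 and 0.67. For Clec10a they were 1.06, 1.06 and 1.43, and both genes were among the most even. For Mpeg1 they were 1.84, 1.45 and 1.04, although its groups overlapped widely. For Ms4a7 they were 4.01, 0.37 and 0.32, and for Adgre1 3.43, 1.01 and 0.56, so that pair 1 was far larger on this scale. The added 1 shrinks differences at low levels, as for Ms4a7 in mice 2, at 0.393 CPM in T1D and 0.0773 CPM in NGT. Lyve1 (0.54, 2.40 and 1.05) and Vcam1 (0.15, 1.11 and 1.89) differed least in pair 1.

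Other genes of the macrophage and the lysosome were read from lists besides the members. Of all genes, 52.1% were higher in T1D than in NGT and 55.3% were higher in Lira than in T1D. Shares of all genes at an unadjusted p under 0.05 were 3.95% and 3.33%, against which the counts of these lists are to be read. Of 22 other macrophage genes, 20 had a higher fitted level in T1D than in NGT, 4 with an unadjusted p under 0.05, with a median log2 difference of 1.25, and 15 had a lower level in Lira than in T1D, 2 with such a p, with a median of -0.66. Without T1D mouse 1 the medians were 0.17 and 0.42, so the second changed sign, and without both mice numbered 1 the first was 1.15. C1qa, a chain of the complement component C1q, was at 21.4, 5.96 and 7.36 CPM in NGT, at 229, 14.4 and 17.3 CPM in T1D, and at 13.1, 16.2 and 22.4 CPM in Lira. Slc40a1, the iron exporter and another abundant gene of this list, had a log2 difference of -0.32 (SE 0.54) between T1D and NGT, and was at its lowest, 15.4 CPM, in T1D mouse 1.

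Of 47 other lysosomal genes, 36 were higher in T1D than in NGT, 5 with an unadjusted p under 0.05, with a median log2 difference of 0.37, and 38 were lower in Lira than in T1D, 2 with such a p, with a median of -0.27. Without T1D mouse 1 these medians were 0.05 and 0.06, and without both mice numbered 1 the first was 0.19. The most abundant, Psap (the saposin precursor), Lamp1 (a lysosome membrane protein) and Laptm4a, differed by 0.00 (SE 0.22), -0.07 (SE 0.21) and 0.09 (SE 0.18) on the log2 scale between T1D and NGT. Partners of dying-cell clearance, among them Cd36, Rac1 and Lrp1, had 11 of 17 genes higher in T1D, 0 with an unadjusted p under 0.05, and a median of 0.23, with -0.09 for Lira against T1D. The first turned to -0.07 without T1D mouse 1, with 7 of 17 higher against 48.6% of all genes, and the second to 0.00. Without both mice numbered 1 the first was 0.09. The 4 lysosome transcription factors, among them Tfeb, Tfe3 and Mitf, had a median of 0.15 and of 0.00 in the 2 comparisons, with 0 at an unadjusted p under 0.05, and of -0.03 and 0.24 without T1D mouse 1. The first was -0.03 without both mice numbered 1 as well. No gene of these 4 lists was a DEG by edgeR's quasi-likelihood test.

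Markers of other cells moved with the members in part. Osteoclast markers, which share CD68 and cathepsins with macrophages, summed to 88 to 141 CPM in NGT, 130 to 319 in T1D and 106 to 198 in Lira, and 6 of the 8 tested were highest in T1D mouse 1. Their median log2 difference was 1.90 for T1D against NGT and 1.40 without T1D mouse 1, and -1.22 and -0.72 for Lira against T1D, so its sign stayed the same without that mouse in both comparisons. Without both mice numbered 1 the first was 2.01. Markers of osteoblasts and stroma summed to 250 to 1084 CPM in NGT, 615 to 3888 in T1D and 401 to 968 in Lira, where 3888 was T1D mouse 1, which was highest for 5 of 7. Their median went from 0.49 to 0.08 without that mouse for T1D against NGT and from -0.74 to 0.17 for Lira against T1D. The first was 0.20 without both mice numbered 1. Skeletal muscle markers were lowest in T1D mouse 1, at 82843 CPM against 173747 and 226711 in the other T1D mice, 109889 to 231612 in NGT and 118563 to 200455 in Lira. Their part in the members' difference was not tested.

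Blood cell markers followed another order. Neutrophil markers summed to 9.51 to 2368 CPM in NGT, 58.7 to 1475 in T1D and 118 to 5145 in Lira, monocyte markers to 6.96 to 243, 22.7 to 199 and 19.4 to 460, and erythroid markers to 391 to 6613, 493 to 19041 and 830 to 29142. Mouse 2 was the lowest in each group for all 3 lists and Lira mouse 3 the highest of all, and T1D mouse 1 was the highest for 0 of 11 neutrophil, 0 of 9 erythroid and 3 of 6 monocyte markers. Lyz2, Mpeg1, Ms4a6c, Clec7a and F13a1, which were also high in Lira mouse 3 and NGT mouse 1, moved with these lists in those mice. Within numbers, neutrophil markers stood at 2368 CPM in NGT mouse 1 and 1278 in T1D mouse 1, at 9.51 and 58.7 in mice 2, and at 450 and 1475 in mice 3, lower in T1D in the first pair and higher in the others. With both mice numbered 1 left out, the median log2 difference between T1D and NGT was 1.75 for neutrophil, 1.40 for monocyte and 2.72 for erythroid markers. All 11, 6 and 9 tested of these markers were higher in T1D, as were 30 of 31 members and 51.2% of all genes in that fit. Their part in the members' difference was not tested.

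Dendritic cell markers summed to 9.98 to 25.2 CPM in NGT, 15.7 to 28.6 in T1D and 11.7 to 30.5 in Lira, with Batf3 under 1 CPM in every mouse. B cell markers summed to 17.2 to 103, 46.3 to 79.2 and 32.9 to 228, and endothelial markers to 248 to 370, 256 to 319 and 248 to 433. No marker found in the table was at 0 in all 9 mice, and the erythroid marker Ahsp had no row in it and was not analysed here.

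**Figure D5:**
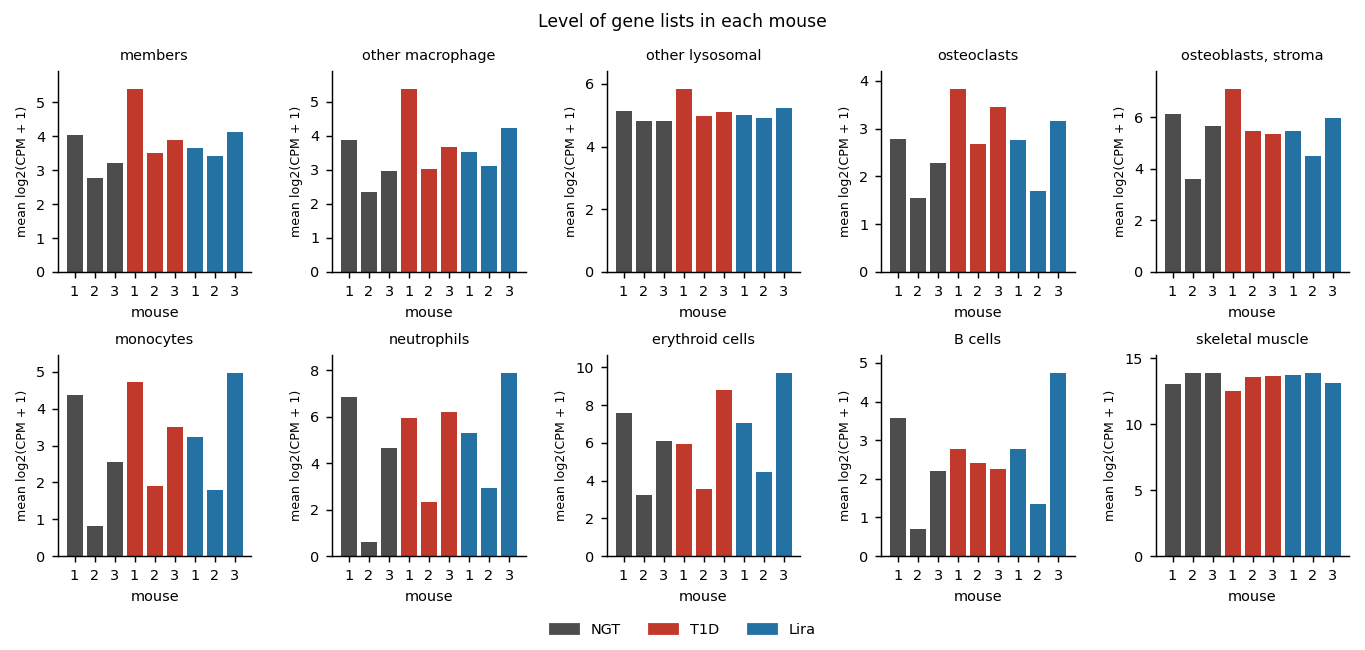
Mean log2(CPM + 1) over the genes of each list in each mouse (1 bar per mouse, axes from 0, NGT grey, T1D red, Lira blue). T1D mouse 1 is highest for the members, the other macrophage, other lysosomal, osteoclast and osteoblast lists, and Lira mouse 3 for the monocyte, neutrophil, erythroid and B cell lists.

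Sequence before the start of transcription was also read, and its part in the order of mice was not tested. RefSeq promoters (GRCm38.p6) were matched by symbol for 23 of the 32 members, and the 250 bases before the start were searched on both strands. CACGTG, the E-box at the core of the element bound by Tfeb, Tfe3 and Mitf, was in the windows of 3 of 23 members, 13% against 6.86% of all 27025 genes, and all 3 are lysosomal proteases. Of these, Lgmn was highest in T1D mouse 1, and Ctsd and Ctsl were not. In the stretches below, written 5′ to 3′ on the gene's own strand, the capitals mark CACGTG. The match in Ctsd begins 98 bases before the start in the first stretch (chr7:142387893-142387952, minus strand) and 245 in the second (chr7:142388040-142388077), that in Ctsl 236 bases before (chr13:64370724-64370770, minus strand) and that in Lgmn 49 bases before (chr12:102439109-102439168, minus strand).
Ctsd, first: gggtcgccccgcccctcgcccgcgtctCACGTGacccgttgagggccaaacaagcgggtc
Ctsd, second: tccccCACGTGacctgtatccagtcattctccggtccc
Ctsl: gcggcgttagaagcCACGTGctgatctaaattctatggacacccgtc
Lgmn: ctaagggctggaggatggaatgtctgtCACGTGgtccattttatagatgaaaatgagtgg

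AGGAAGT, a form of the sites bound by the myeloid factor PU.1 and its relative Spi-C, was in the windows of 7 of 23 members (F13a1, Folr2, Havcr2, Lyz2, Mrc1, Ms4a6c and Spic), 30.4% against 8.8% of all genes. No member's window held both motifs. A match says only that these letters are present, and binding was not measured. Shown are Lyz2 (chr10:117282339-117282399, minus strand) and Ms4a6c (chr19:11469324-11469367, plus strand), which were high in 1 mouse of each group, and Mrc1 (chr2:14229176-14229236, plus strand) and F13a1 (chr13:37049216-37049276, minus strand), which had smaller differences between T1D and NGT with all 9 mice in the fit. F13a1, too, was high in 1 mouse of each group. In Lyz2 and Mrc1 the match is on the opposite strand and reads ACTTCCT.
Lyz2: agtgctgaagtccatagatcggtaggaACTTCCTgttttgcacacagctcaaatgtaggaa
Ms4a6c: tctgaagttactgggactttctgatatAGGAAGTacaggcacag
Mrc1: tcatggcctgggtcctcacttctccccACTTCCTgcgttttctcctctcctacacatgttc
F13a1: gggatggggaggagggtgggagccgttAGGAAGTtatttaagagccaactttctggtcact

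Some values carry a further limit. Deposited counts of Cd163, Havcr2, Clec10a, Ctsb, Ctsl, Lyz2, Slc11a1, Maf and Ms4a6c were not whole in 8 or 9 of the 9 libraries, so reads were divided between genes and their levels are uncertain. A p-value above the limit does not show that groups were alike, and with 3 mice per group the intervals were wide.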

How the data were processed

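RNA-seq was made from 1 tibia of each of 9 mice. The authors deposited expected counts per gene, of which 30.2% were not whole, and FPKM values, scaled by the authors for gene length and library size. The submitters' processing notes name mm9, and the aligner and the counting tool are not given in the sources used here. Counts were rounded, genes were kept where 3 or more libraries held 10 or more counts, and edgeR 4.0.16 in R 4.3.3 (TMM, glmQLFit, glmQLFTest, 3 group means over all 9 libraries) gave fold changes and p-values, adjusted by the Benjamini-Hochberg method over 13960 genes. DEGs had an adjusted p under 0.05 and a fold over 2. FPKM served to compare levels between genes. The scripts were tested on simulated data.

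Mice are numbered as in the labels. Equally numbered NGT and T1D mice correlated across genes (deviations from the group mean, r = 0.583, 0.647 and 0.283) and were taken as pairs, a pairing read from the data. T1D and Lira mice were not taken as pairs, since r was -0.244 for mice 1, beside 0.615 and 0.271 for the others. Alternatives were DESeq2 1.42.0, limma 3.58.1 on log2(CPM + 1) and log2(FPKM + 1), library size alone, no filter, fits of 2 groups, the replicate block and leaving out each mouse. Leaving out T1D mouse 1 and Lira mouse 3 together, or NGT mouse 1 and T1D mouse 1 together, was chosen after seeing the data.

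Every member was named, and of each other list at most the 3 genes of highest mean CPM, apart from genes given as background and Batf3, chosen once its values were known. Values of some single genes of these lists are left out of the text. Members and lists were chosen with earlier results of these data known. Nothing in the labels says whether mice shared a cage or a batch.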

Additional observations from a re-analysis of the deposited data

How the results depend on the processing

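No member was a DEG in any setting of edgeR, DESeq2 or limma. For T1D against NGT, the number of members at an unadjusted p under 0.05 (12) was 7 with library size alone (3.4% of all genes), 4 with only the 2 groups compared (3.99%), 14 with the replicate block and all 9 libraries (5.39%, with Gpnmb, Lyve1 and Mrc1 gained and Ms4a7 lost), 24 with the replicate block and only the 2 groups compared (14.0%), 5 and 1 with limma on CPM and FPKM (3.65% and 3.12%), and 1 without both T1D mouse 1 and Lira mouse 3 (3.8%). Without both mice numbered 1 it was 10 (4.06%), and 19 with the replicate block and only the 2 groups compared (15.4%). Leaving out 1 mouse gave 1 to 16, with 1 without NGT mouse 3 (1.82%) or T1D mouse 1 (2.99%), 2 without NGT mouse 2 (1.61%) and 16 without NGT mouse 1 (7.31%). The members' median log2 difference (1.25) was 1.01 without both mice numbered 1, 0.37 without T1D mouse 1 and Lira mouse 3, and 0.40 (without T1D mouse 1) to 2.29 (without NGT mouse 1) when 1 mouse was left out.

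For Lira against T1D, the number (2) was 0 with library size alone (2.51% of all genes), with limma on CPM or FPKM (2.72% and 2.14%) and without T1D mouse 1 and Lira mouse 3 (3.55%), 4 without the filter (2.97%) and with only the 2 groups compared (2.13%), 6 with DESeq2 (4.44%), and 1 with the replicate block, which was Axl with all 9 libraries (3.63%) and Lyve1 with only the 2 groups compared (1.85%). Leaving out 1 mouse gave 0 to 10: 0 without T1D mouse 1 (2.36%), Lira mouse 2 (3.13%) or Lira mouse 3 (5.3%), 1 without Lira mouse 1 (1.86%), 8 without T1D mouse 3 (5.06%) and 10 without T1D mouse 2 (4.04%). The median (-0.84) ranged from -1.16 to 0.13, and turned positive only without T1D mouse 1. It was -0.25 without T1D mouse 1 and Lira mouse 3. With library size alone, the median of all genes was 0.09 for T1D against NGT and -0.05 for Lira against T1D, and Cd163, Ctsd and Siglec1 changed sign in the second. In all these settings the cause was not tested. Depth limits Marco, Timd4, Spic and Havcr2, which had few counts in most mice.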
